A study of Drosophila melanogaster with 6 samples.

Results

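The genes described are the 23 rows of the deposited table, of 14138 with a symbol, whose symbols name core parts of the spliceosome: Sm and LSm proteins, proteins of small nuclear ribonucleoproteins (snRNPs), the U2AF subunits, Prp factors, SF1, and the SR proteins SF2 and SC35. Members were found by a pattern of symbols, which was set with earlier results of these data known, and rows for the small nuclear RNAs themselves were left out. The pattern also took in LSm1, which belongs to a cytoplasmic ring and is counted among the 23. RNA came from olfactory projection neurons of Drosophila melanogaster, the second-order neurons of the olfactory system, which relay signals out of the antennal lobe. About 2000 GFP-marked cells were sorted per library, and their RNA was sequenced by SMART-seq2, which copies whole transcripts from few cells. The adult group holds 3 libraries from untreated adults of 5 days, and the development group holds 3 libraries from untreated pupae at 36 h after puparium formation. The sources used here give neither the strain nor the driver of the GFP marker. They also do not say whether replicate libraries are independent animals or sorts. The p-values therefore reflect library-to-library spread alone, and that spread may be technical.

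The spliceosome removes introns from precursor messenger RNA. U1 and U2 snRNPs recognise the ends of an intron, the tri-snRNP of U4, U6 and U5 joins them, and the assembly is then rearranged into its active form. Each snRNP consists of a small RNA and proteins. A ring of Sm proteins encircles U1, U2, U4 and U5 RNA, and a ring of the related LSm proteins binds U6 RNA.

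Core spliceosome genes were lower in adult than in developing projection neurons. Of the 23 members, 21 (91.3%) fell and 0 rose (limma on log2(CPM + 1), Benjamini-Hochberg adjusted p under 0.05), where 37.9% of all 6814 tested genes fell, 27.2% rose and 65.1% passed in either direction. CPM scales each gene to 1000000 assigned reads per library. The number of members that rose was also 0 at an unadjusted p under 0.05 and with limma voom on recovered reads. The median log2 fold change, adult minus development, was -1.36 for the members and -0.15 for all tested genes. A fall of at least 1 log2 unit was called for 14 members (60.9%), against 18.0% of all tested genes. All adult libraries lay below all development libraries for 20 members, as they did for 40.2% of all tested genes. The 23 genes together took 1364, 1279 and 1344 CPM in the adult libraries, against 2904, 2940 and 3009 CPM in the development libraries. As the values are shares of each library and come from pooled cells, less of these RNAs per cell, fewer cells containing them and more of other RNA cannot be told apart.

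**Figure D1:**
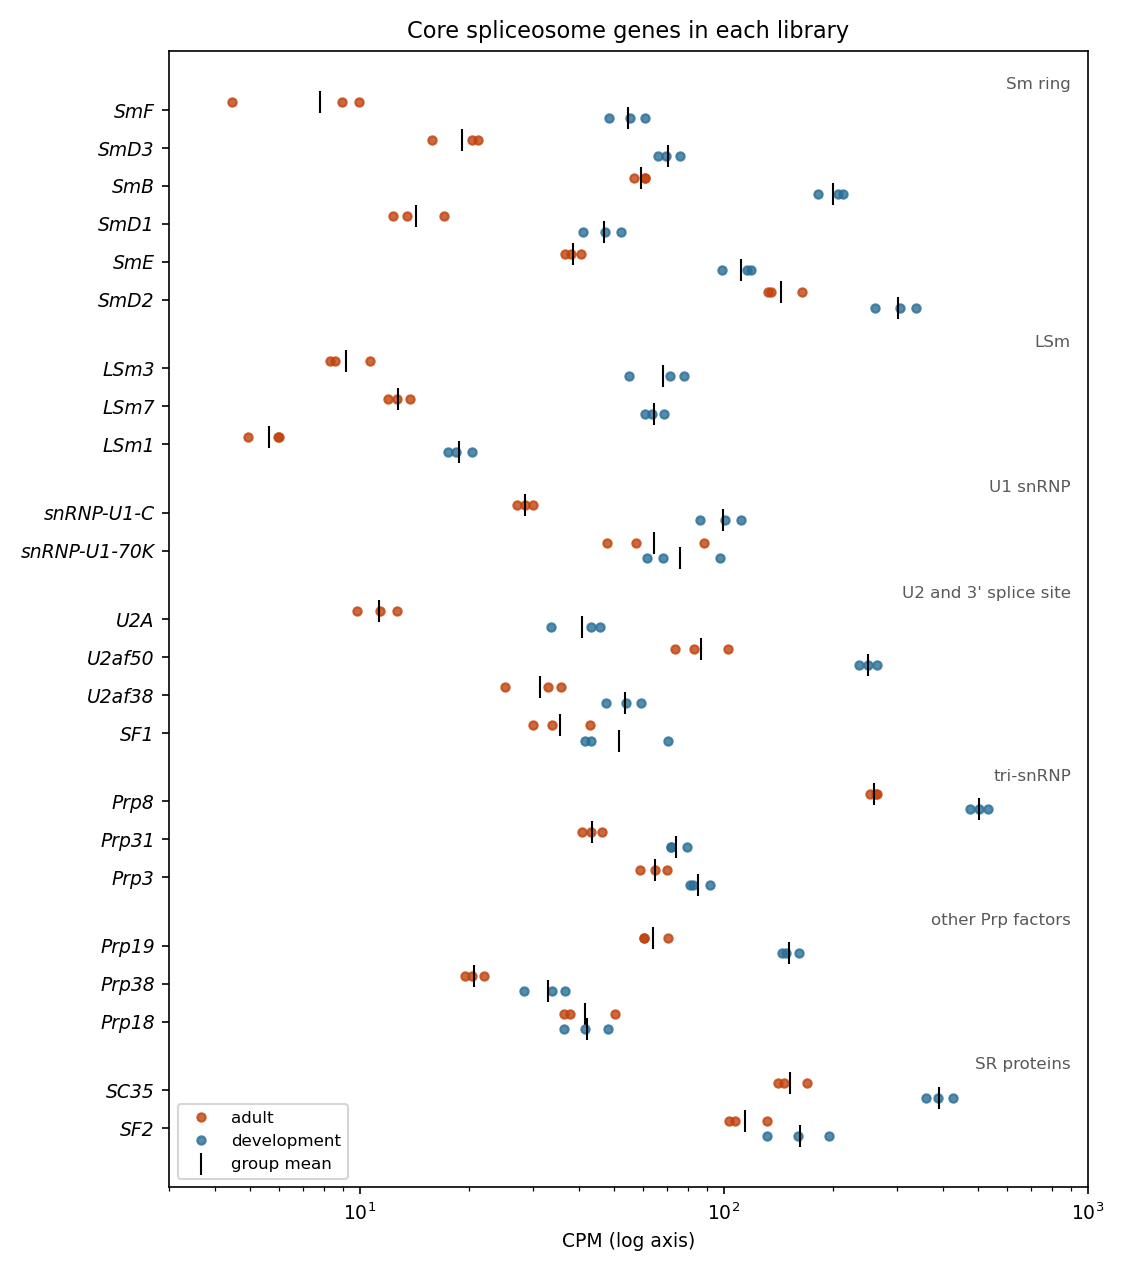
CPM (log axis) of the 23 core spliceosome genes, with 3 adult and 3 development libraries as points and a tick at each group mean. The adult points lie left of all development points for 20 genes, and the groups overlap for SF1, snRNP-U1-70K and Prp18.

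All 23 members passed the expression filter of at least 5 CPM in at least 3 libraries. The libraries held 18602628 to 42217764 recovered reads, and the lowest read number of a member in any library was 162, for LSm1. Development replicate 1 stood apart from the other 2 development libraries, where chi-square divided by its degrees of freedom was 68.0 and 55.8, against 17.0 between replicates 2 and 3, and 41.95 to 60.4 between adult pairs. For some results that rest on that library, values without it are also given.

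All 6 named Sm genes fell. SmB, SmD1, SmD2, SmD3, SmE and SmF are subunits of the ring that is loaded onto the snRNAs in the cytoplasm. SmF had 8.95, 9.98 and 4.47 CPM in the adult libraries, against 48.3, 55.3 and 60.7 CPM in the development libraries. The lowest development value was thus several times the highest adult value, and adult replicate 3 was the lowest of all. The log2 fold change of SmF was -2.72 ± 0.250 (SE, limma with adjusted p = 4.67e-07). SmF lies on 2R from 12183844 to 12184310 (BDGP6.54) and is annotated with a single exon.

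SmD3 had 15.8, 20.3 and 21.2 CPM in the adult libraries, against 69.5, 66.1 and 75.8 CPM in the development libraries. The 2 groups were far apart relative to their spread, at a log2 fold change of -1.84 ± 0.166 (SE, limma with adjusted p = 3.71e-07). SmD2 fell least among the named Sm genes, with 165, 135 and 132 CPM in the adult libraries, against 261, 304 and 339 CPM in the development libraries. Its log2 fold change was -1.06 ± 0.126 (SE, limma with adjusted p = 6.01e-06). SmB had 56.7 to 60.9 CPM in adult and 181.5 to 212.7 CPM in development libraries. SmD1 averaged 14.3 ± 2.48 CPM in adult and 46.9 ± 5.65 CPM in development libraries, and SmE 38.5 ± 1.96 CPM in adult and 111.6 ± 10.8 CPM in development libraries (SD, n = 3 each). These subunit genes had log2 fold changes of -1.73 (SmB), -1.65 (SmD1) and -1.51 (SmE). The ring has one more subunit, SmG, whose gene is listed as SNRPG and so is not among the 23. SNRPG averaged 14.7 ± 2.46 CPM in adult and 51.8 ± 4.71 CPM in development libraries (SD, n = 3 each), a log2 fold change of -1.76 ± 0.179 (SE, limma with adjusted p = 1.25e-06).

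The ring holds its subunits in equal number, which allows their RNA levels to be set side by side per length. In adult libraries SmD2 averaged 185 CPM per kb of exonic sequence and SmF 16.7 CPM per kb, against 388 CPM per kb for SmD2 and 117 CPM per kb for SmF in development libraries. SmD2 was the highest of the 7 subunit genes in every library. It exceeded the lowest subunit gene of the same library 11.4-fold, 8.14-fold and 17.7-fold in the adult libraries, against 5.96-fold, 5.44-fold and 6.72-fold in the development libraries. The lowest gene was SmD1 in adult replicate 1 and in all development libraries, and SmF in adult replicates 2 and 3. The subunit genes were therefore less even in every adult library than in any development library, a comparison chosen after the values were seen and not tested.

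**Figure D2:**
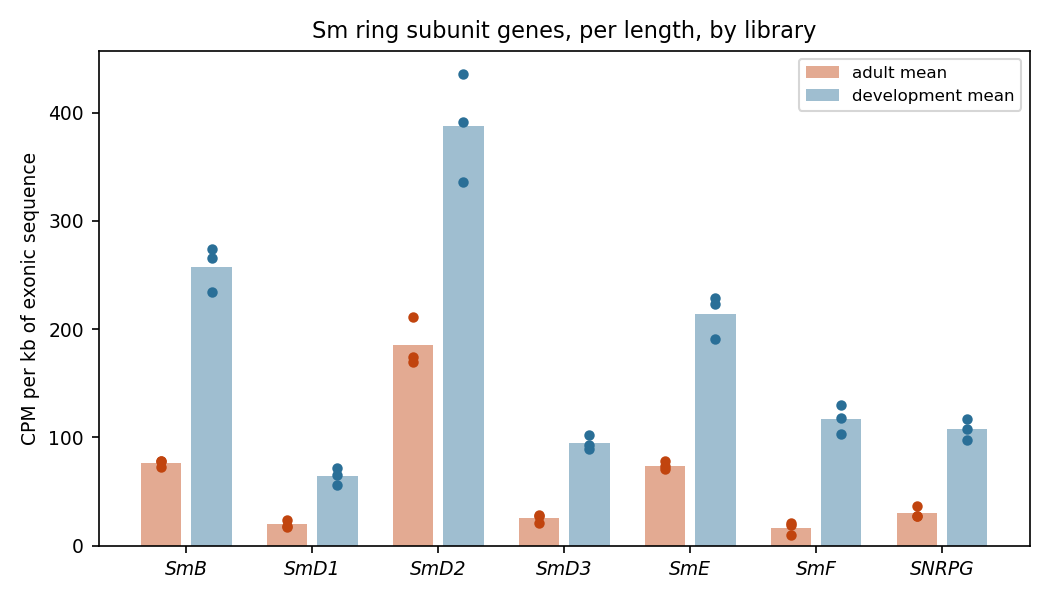
CPM per kb of exonic sequence for the 7 genes of the Sm ring, with bars for the group means and points for the 3 adult and 3 development libraries. All subunit genes are lower in adult libraries, and SmD2 is the highest in every library.

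The 3 LSm genes also fell. LSm3 and LSm7 encode subunits shared by the nuclear ring on U6 RNA and the cytoplasmic ring that promotes decapping of messenger RNA, and LSm1 belongs to the cytoplasmic ring. LSm3 had 8.57, 8.27 and 10.7 CPM in the adult libraries, against 55.0, 71.3 and 77.9 CPM in the development libraries. With the groups widely separated, its log2 fold change of -2.76 ± 0.192 (SE, limma with adjusted p = 3.24e-08) was close to that of SmF. LSm3 and SmF had the 2 largest falls of the 23, and which of them fell more depended on the setting, with SmF ahead in limma voom and without adult replicate 1 or 2. LSm3 lies on 3R from 23996262 to 23997017, and 29.08% of its exonic bases also belong to CG33108 on the same strand, so its level is uncertain to that extent. LSm7 had 13.7, 12.0 and 12.6 CPM in the adult libraries, against 63.5, 61.0 and 68.6 CPM in the development libraries, a log2 fold change of -2.25 ± 0.163 (SE, limma with adjusted p = 4.70e-08). LSm1 averaged 5.63 ± 0.594 CPM in adult and 18.7 ± 1.46 CPM in development libraries (SD, n = 3 each), a log2 fold change of -1.57.

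The 2 U1 snRNP genes differed in their change. Both products bind close to the 5' splice site, snRNP-U1-C by stabilising the pairing of U1 RNA with it and snRNP-U1-70K by holding a stem-loop of U1 RNA. snRNP-U1-C had 28.5, 27.1 and 29.9 CPM in the adult libraries, against 85.9, 101 and 112 CPM in the development libraries. It fell by 1.76 ± 0.147 on the log2 scale (SE, limma with adjusted p = 1.80e-07). snRNP-U1-70K had 48.0, 57.4 and 88.3 CPM in the adult libraries, against 97.6, 61.5 and 68.1 CPM in the development libraries. These groups overlapped, as adult replicate 3 and development replicate 1 were both high, and the log2 fold change of -0.25 ± 0.218 did not pass the test (SE, limma with adjusted p = 0.336). Without adult replicate 3 it was -0.49 and passed (adjusted p = 0.0486). The ratio of snRNP-U1-70K to snRNP-U1-C CPM within a library was 1.68, 2.12 and 2.95 in the adult libraries, against 1.14, 0.608 and 0.609 in the development libraries. Every adult ratio was above every development ratio. The same held for the other pairs compared, U2af38 to U2af50, SF2 to SC35 and Prp3 to Prp31. The U1 pair was singled out after its values were seen, and the ratio was not tested. Exonic length is 2948 bases for snRNP-U1-70K and 687 bases for snRNP-U1-C, and what part length had was not tested.

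All 4 genes for U2 snRNP and recognition of the 3' splice site fell, though SF1 only barely. U2A encodes the U2A' protein of U2 snRNP. It had 12.7, 11.4 and 9.81 CPM in the adult libraries, against 43.2, 33.5 and 45.8 CPM in the development libraries. All adult values were less than those of development, at a log2 fold change of -1.76 ± 0.195 (SE, limma with adjusted p = 2.89e-06).

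U2af50 and U2af38 encode the large and small subunits of U2AF, which bind the pyrimidine tract and the AG at the end of the intron. U2af50 had 103, 83.2 and 73.3 CPM in the adult libraries, against 235, 264 and 249 CPM in the development libraries, a fall of 1.53 ± 0.132 on the log2 scale (SE, limma with adjusted p = 2.47e-07). U2af38 had 35.8, 32.9 and 25.1 CPM in the adult libraries, against 59.5, 47.5 and 54.0 CPM in the development libraries. It fell by 0.77 ± 0.173 (SE, limma with adjusted p = 0.00141). The large subunit gene thus had the larger fall in value, and the ratio of U2af38 to U2af50 CPM was 0.347, 0.395 and 0.342 in the adult libraries, against 0.253, 0.18 and 0.217 in the development libraries. The groups of ratios did not overlap, a comparison likewise chosen after the values were seen and not tested. SF1, which binds the branch point in the first complex to form, had 29.99, 43.0 and 33.8 CPM in the adult libraries, against 70.3, 43.3 and 41.6 CPM in the development libraries. The groups overlapped, and only development replicate 1 stood well above the adult values. The log2 fold change of SF1 was -0.50 ± 0.210 (SE, limma with adjusted p = 0.0496), and without development replicate 1 it was -0.26 and did not pass (adjusted p = 0.227).

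The 3 tri-snRNP genes fell by less than 1 log2 unit each. Prp8, the large U5 protein at the catalytic centre, had 262, 253 and 265 CPM in the adult libraries, against 534, 503 and 476 CPM in the development libraries. Replicates lay close together in both groups, and Prp8 fell by 0.95 ± 0.094 on the log2 scale (SE, limma with adjusted p = 8.89e-07). Prp31 and Prp3 encode proteins of the U4/U6 particle. Prp31 fell by 0.76, with 43.5 ± 2.77 CPM in adult and 74.2 ± 4.27 CPM in development libraries (SD, n = 3 each). Prp3 averaged 64.7 ± 5.49 CPM in adult and 84.9 ± 6.02 CPM in development libraries, a log2 fold change of -0.39 ± 0.131 (SE, limma with adjusted p = 0.0184). That call ended without adult replicate 2 (adjusted p = 0.0767).

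Of the 3 other Prp genes, Prp19 and Prp38 fell. Prp19, the ubiquitin ligase of a complex needed for activation, had 60.5, 60.5 and 70.6 CPM in the adult libraries, against 145, 148 and 161 CPM in the development libraries. The groups were well separated, at a log2 fold change of -1.23 ± 0.123 (SE, limma with adjusted p = 1.003e-06). Prp38, also required for activation, averaged 20.6 ± 1.26 CPM in adult and 32.9 ± 4.31 CPM in development libraries (SD, n = 3 each), a log2 fold change of -0.64. Prp18, which acts in the joining of exons, had 50.4, 36.4 and 37.9 CPM in the adult libraries, against 36.4, 41.6 and 48.1 CPM in the development libraries. The libraries of both groups were interspersed, and Prp18 was not called (log2 fold change -0.02 ± 0.174, SE, limma with adjusted p = 0.913).

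SC35 and SF2 encode SR proteins, which bind exons and help recruit U1 snRNP and U2AF. SC35 had 169, 141 and 146 CPM in the adult libraries, against 360.3, 388 and 427 CPM in the development libraries. No adult library came near the development range, and SC35 fell by 1.36 ± 0.111 on the log2 scale (SE, limma with adjusted p = 1.47e-07). SF2 had 107, 103.6 and 131.6 CPM in the adult libraries, against 195, 159.9 and 131.9 CPM in the development libraries. Adult replicate 3 and development replicate 3 were nearly equal, and the fall was 0.49 ± 0.150 (SE, limma with adjusted p = 0.0104). With each library scaled by the median of ratios, SF2 no longer passed (adjusted p = 0.0594), nor did Prp3 (0.129) or SF1 (0.158).

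**Figure D3:**
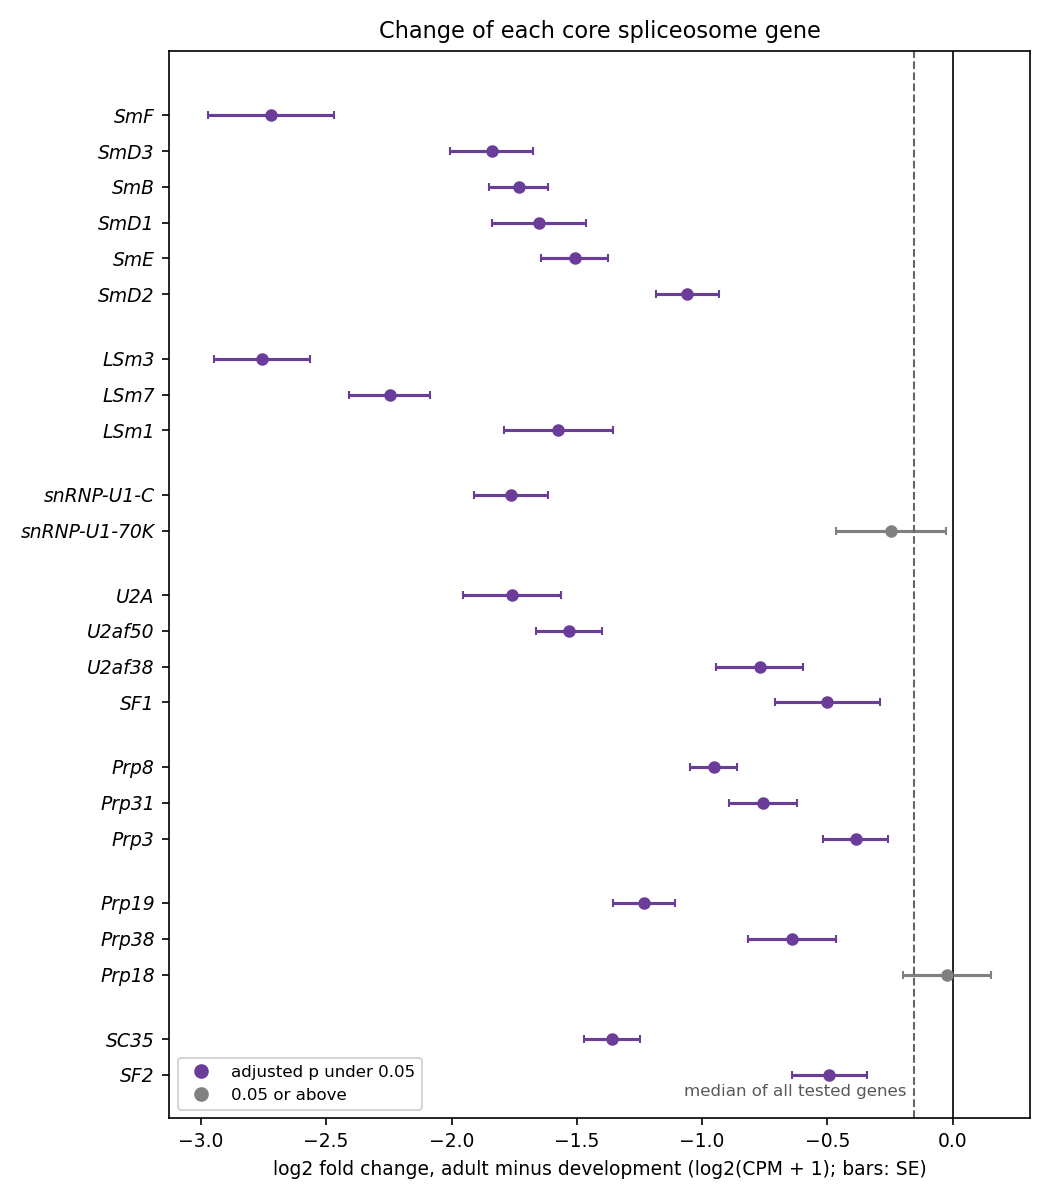
Log2 fold change, adult minus development, of each core spliceosome gene on the log2(CPM + 1) scale, with bars for the SE of the limma fit and a dashed line at the median of all tested genes (-0.15). Only snRNP-U1-70K and Prp18, in grey, did not pass the test.

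The size of the fall went with the length of the gene. The 10 members with under 1000 exonic bases, which are the Sm and LSm genes and snRNP-U1-C, all fell, with log2 fold changes from -2.76 to -1.06 and a median of -1.75. Of the 13 longer members, 11 fell, and their log2 fold changes ran from -1.76 to -0.02 with a median of -0.76. Spearman's rho between exonic length and log2 fold change was 0.766 over the 23 genes, which share the same 6 libraries, and 0.217 over 6763 tested genes with a length. Among all tested genes 50.5% of the 829 under 1000 bases and 36.1% of the 5934 longer ones fell, with median log2 fold changes of -0.44 and -0.12.

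Length also went with the difference of development replicate 1 from the other 2 development libraries. Among the 10 short members that library was the lowest of its group for 8 and the highest for 0, and among the 13 longer ones it was the lowest for 4 and the highest for 7. Its median log2 difference from the mean of replicates 2 and 3 was -0.25 for the short members and 0.14 for the longer ones, against -0.22 for all tested genes under 1000 bases and -0.01 for longer ones. Without development replicate 1 the median log2 fold change was -1.825 for the short and -0.69 for the longer members. What part read coverage along transcripts or RNA quality had in these differences was not tested.

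**Figure D4:**
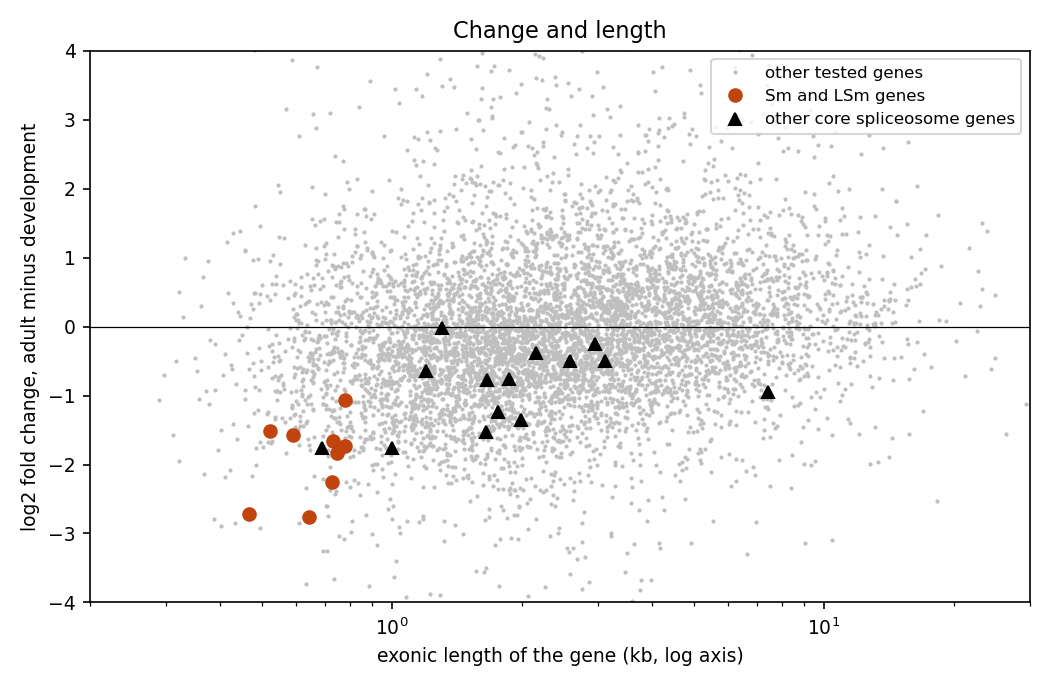
Log2 fold change, adult minus development, against exonic length (kb, log axis) for the Sm and LSm genes (circles), the other core spliceosome genes (triangles) and all other tested genes with a length (grey, with 78 points outside the axes). The circles lie at the short end, between -2.76 and -1.06.

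Several of these genes contain no intron in the annotation. SmE, SmF, snRNP-U1-C, U2A, Prp18 and Prp38 have a single exon in their longest transcript, 6 of 23 (26.1%), while 7.22% of the 6666 tested protein-coding genes have no transcript with more than 1 exon. These 6 genes include both large falls (SmF, snRNP-U1-C, U2A) and Prp18, which did not pass. The 23 genes lie on 5 chromosome arms (2L, 2R, 3L, 3R and X). For 9 members more than 10% of the exonic bases also belong to another gene. The overlap is highest for LSm7, with 40.72% shared with ChLD3 on the opposite strand, and SmD3, with 37.5% shared with an antisense RNA gene. No source used here says whether the counting used strand, so reads of such partners cannot be separated.

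Another 13 genes carry spliceosome names of the same pattern in the current annotation but stand in the table under CG numbers or an older symbol, so the choice by symbol passed them over. Of these 8 fell, 1 rose and 4 did not pass, with a median log2 fold change of -0.83. Among all tested genes 37.9% fell and 27.2% rose, with a median of -0.15. Of the 23 members 21 fell, with a median of -1.36. The 13 genes were looked up after the values of the 23 were seen. With them, the genes of SF3b, the U2 subcomplex that grips the branch point, can be described. CG13298 (Sf3b6, the subunit beside the branch point adenosine) had 65.6, 69.3 and 74.7 CPM in the adult libraries, against 320.3, 391 and 413 CPM in the development libraries. This was the largest fall among the 13, at a log2 fold change of -2.40 ± 0.122 (SE, limma with adjusted p = 1.47e-09). Of the 13, the other SF3b genes that fell had log2 fold changes of -1.305 for CG13900 (Sf3b3), -0.93 for CG11985 (Sf3b5) and -0.755 for CG3605 (Sf3b2). Outside the 13, the SF3b genes CG9548 (Phf5a) and Spx (the fly SF3b49 gene) had log2 fold changes of -2.003 and -1.01. Of the exonic bases of CG13900, 57.93% also belong to a noncoding gene on the same strand. CG2807 (Sf3b1, the scaffold of SF3b) averaged 50.2 ± 12.0 CPM in adult and 61.0 ± 12.1 CPM in development libraries (SD, n = 3 each) and did not pass (limma, adjusted p = 0.211).

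The 3 genes of SF3a, the other U2 subcomplex, had nearly equal changes, with log2 fold changes of -0.99 for CG16941 (Sf3a1), -0.89 for CG10754 (Sf3a2) and -0.97 for noi. Among U1 partners CG3542 (Prp40) fell by 0.83, while CG1646 (Prp39) rose, with 106, 106 and 127 CPM in the adult libraries, against 92.1, 86.9 and 87.2 CPM in the development libraries. The log2 fold change of CG1646 was 0.34 ± 0.123 (SE, limma with adjusted p = 0.0282). This call ended without adult replicate 3 (adjusted p = 0.127), development replicate 2 (0.0836) or development replicate 3 (0.0725). CG6841 (Prp6, a tri-snRNP protein) fell by 0.83. The helicase genes l(1)G0007 (Prp16) and CG6227 (Prp5) and the kinase gene CG7028 (Prp4k) had log2 fold changes of -0.31, -0.40 and -0.21 and did not pass (limma, adjusted p = 0.215, 0.217 and 0.330).

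Other lists of RNA processing genes were compared with these members, beside the 37.9% of all tested genes that fell and the 27.2% that rose. Of 21 tested genes for other spliceosome proteins 10 fell and 3 rose (1 without adult replicate 3). This list includes CG9548, Spx, noi and l(1)G0007, already described above. Falls close to each other followed that of CG9548, at log2 fold changes of -1.73 for U4-U6-60K and -1.72 for hoip, both tri-snRNP genes. U4-U6-60K had 85.5 ± 5.80 CPM in adult and 291 ± 69.0 CPM in development libraries (SD, n = 3 each). The 2 largest rises were in pUf68, whose product acts in 3' splice site choice and which averaged 519 ± 37.9 CPM in adult and 327.5 ± 26.6 CPM in development libraries, and in Slu7, a factor of exon joining. The call of Slu7 (log2 fold change 0.50) ended without development replicate 1 (adjusted p = 0.128), adult replicate 2 (0.107) or adult replicate 3 (0.0827). The U5 helicase gene l(3)72Ab, the fly Brr2, averaged 74.2 ± 14.2 CPM in adult and 67.0 ± 3.02 CPM in development libraries and did not pass (limma, adjusted p = 0.461). Of 10 genes for other SR proteins and their kinases 4 fell, a share close to that of all tested genes. These were led by Srp54 and Rsf1 with log2 fold changes of -1.30 and -1.21.

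Of 9 genes for the assembly of snRNPs 8 fell, at a median of -1.125 on the log2 scale, and 0 rose (limma; 0 also with voom). Smn, whose product heads the complex that loads Sm rings onto snRNAs, averaged 26.3 ± 5.14 CPM in adult and 108 ± 3.61 CPM in development libraries, a log2 fold change of -2.02 (SD, n = 3 each, limma with adjusted p = 9.10e-08). icln, whose product holds Sm proteins before loading, averaged 37.9 ± 3.92 CPM in adult and 186.5 ± 20.2 CPM in development libraries, a log2 fold change of -2.27 (limma, adjusted p = 7.15e-09). The assembly gene that did not pass was Gem2, at 61.3 ± 8.45 CPM in adult and 61.2 ± 12.1 CPM in development libraries. Of 11 RNA polymerase II subunit genes 10 fell and 0 rose (limma; 0 also with voom), led by Rpb5 and Rpb7 with log2 fold changes of -1.66 and -1.41.

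Of 7 exon junction complex genes 4 fell and 0 rose (limma; 0 also with voom, but 1 under some other settings, among them without development replicate 1), with log2 fold changes of -1.68 for mago and -1.51 for the helicase gene eIF4AIII. Of 13 genes for cap binding and messenger RNA export 9 fell and 1 rose. Hel25E, the export helicase that also acts in spliceosome assembly, averaged 183 ± 21.9 CPM in adult and 679 ± 30.6 CPM in development libraries (SD, n = 3 each), and its partner Ref1 had a log2 fold change of -1.77. The export receptor gene sbr rose, with 135.0 ± 4.64 CPM in adult and 57.1 ± 8.07 CPM in development libraries. Of 12 cleavage and polyadenylation genes 8 fell, led by Clp (-1.935) and Cpsf100 (-1.64), and 1 rose, Pcf11, with a log2 fold change of 0.54. Of 8 decapping genes, whose products work with the cytoplasmic LSm ring, 5 fell, led by DCP2 (-0.91) and me31B (-0.90), and the scaffold gene Edc3 rose (log2 fold change 1.17). Without development replicate 1, 2 decapping genes rose. Of 12 hnRNP genes 4 fell, led by Hrb98DE (-1.16) and glo (-0.75), a share close to the 37.9% of all tested genes. Of the 12, 2 rose, or 5 with median of ratios scaling and 3 without development replicate 1, and the median change was -0.00. ps, the fly Nova gene for a neuronal splicing regulator, averaged 1636 ± 52.9 CPM in adult and 411 ± 46.1 CPM in development libraries, a log2 fold change of 1.995 ± 0.098 (SE, limma with adjusted p = 1.05e-09). The other riser, Hrb27C (log2 fold change 0.57), lost its call without adult replicate 2 (adjusted p = 0.05585), development replicate 2 (0.0726) or development replicate 3 (0.105).

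**Figure D5:**
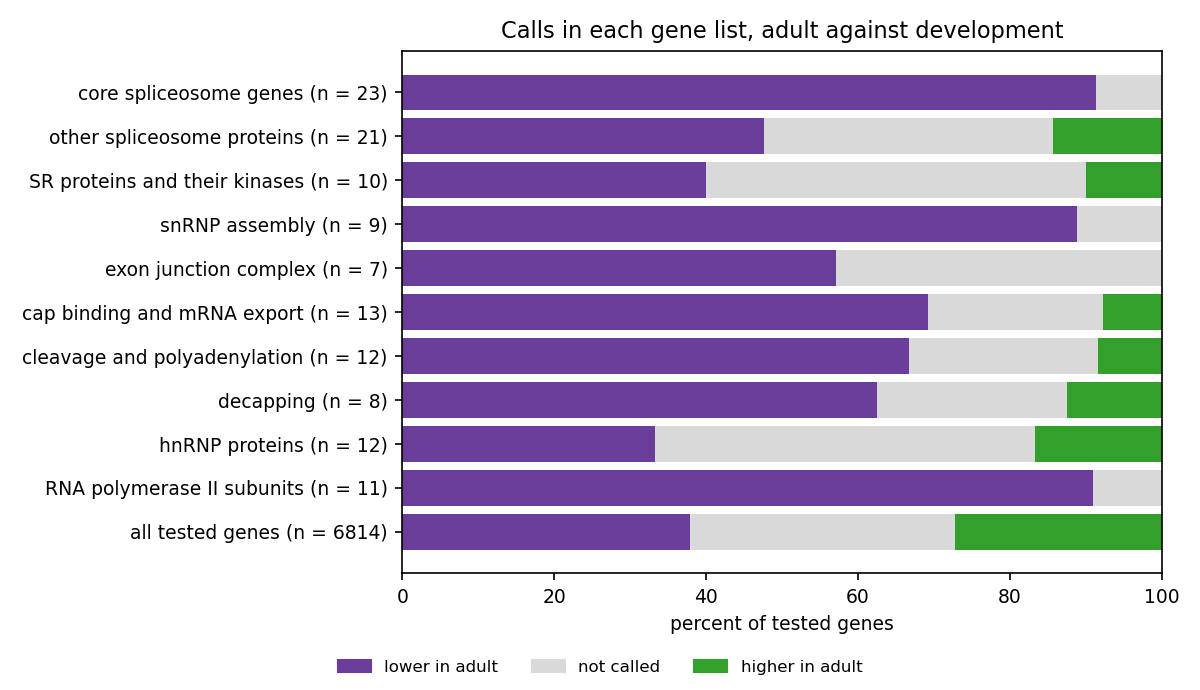
Percent of tested genes called lower, not called or called higher in adult against development (limma, adjusted p under 0.05) for each list, with the number tested in brackets. Core spliceosome, snRNP assembly and RNA polymerase II genes have the largest shares of lower calls, above the 37.9% of all tested genes.

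Markers of projection neurons and of other cells changed between the groups too. All 9 projection neuron markers were detected, with nSyb the most abundant. Their sum was 4064 to 4486 CPM in adult and 2730 to 4152 CPM in development libraries, where the highest sum was that of development replicate 1. Of these, ChAT, VAChT and nSyb rose, vvl, Oaz, C15 and kn fell, and elav and acj6 did not pass (limma, adjusted p = 0.882 and 0.106). The result for elav rests on development replicate 1. It had 358.8, 166.5 and 166.8 CPM in the development libraries, against 193.8, 209.1 and 225.7 CPM in the adult libraries. ChAT, for the synthesis of acetylcholine, averaged 569 ± 15.4 CPM in adult and 43.8 ± 8.63 CPM in development libraries (SD, n = 3 each). Markers of dividing cells summed to 15.4 to 31.1 CPM in adult and 31.45 to 46.6 CPM in development libraries. Of these 10 genes, CycB, Mcm2, polo, dpn and ase were under 1 CPM in every library, and Mcm6 was the highest, with 14.2 ± 5.23 CPM in adult and 22.8 ± 8.93 CPM in development libraries. Mcm6 did not pass (limma, adjusted p = 0.0768). PCNA fell, with 4.84 ± 2.02 CPM in adult and 13.29 ± 2.16 CPM in development libraries, a log2 fold change of -1.33 (limma, adjusted p = 0.000936). Glial markers summed to 294 to 416 CPM in adult and 61.3 to 90.6 CPM in development libraries, most of it Gs2. Of the tested glial markers Gs2 and alrm rose, wrapper fell and Eaat1 did not pass (limma, adjusted p = 0.128), while repo, which defines glia, averaged 1.08 ± 0.266 CPM in adult and 0.851 ± 0.0907 CPM in development libraries (SD, n = 3 each). Markers of other neurons summed to 284 to 532 CPM in adult and 46.7 to 60.1 CPM in development libraries. Gad1, VGAT, Vmat, Trh and Orco rose. Vmat averaged 180.3 ± 107.7 CPM and Gad1 111.4 ± 11.7 CPM in adult libraries, against 9.33 ± 6.70 CPM for Vmat and 2.20 ± 1.15 CPM for Gad1 in development libraries, where VGlut was highest on average at 17.0 ± 2.58 CPM. Hemocyte, muscle and fat body markers summed to at most 11.2, 2.115 and 47.5 CPM in adult and 10.05, 7.365 and 50.1 CPM in development libraries, with vkg and Mlc2 the highest of the first 2 lists. The fat body genes moved in opposite directions within their sum. The yolk protein genes Yp1 and Yp2 rose, averaging 18.4 ± 2.38 and 19.3 ± 2.98 CPM in adult libraries, against 0.251 ± 0.214 and 0.211 ± 0.192 CPM in development libraries. Fbp1 and the larval serum protein gene Lsp2 fell, averaging 2.05 ± 2.97 and 0.0203 ± 0.0352 CPM in adult libraries, against 25.5 ± 4.86 and 16.8 ± 4.51 CPM in development libraries. The part of other cells in the change of spliceosome genes was not tested.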

How the data were processed

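The authors deposited 1 table of log2 values, which the values show to be log2(CPM + 1): converted back, every library adds up to 1000000 CPM. The submitters' processing notes list STAR 2.4.2a and HTSeq 0.7.1. No source used here gives their genome build, annotation or strand setting. Of 14139 rows, 1 without a symbol (at most 0.0001% of a library) was left out, and 14035 of 14138 symbols were matched to BDGP6.54, all 23 members included. CPM values were whole multiples of a step per library (100.0% within 0.1 read), which gave the recovered reads. These carry no molecular identifiers.

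Genes with at least 5 CPM in at least 3 of 6 libraries were tested with limma 3.58.1 in R 4.3.3 (lmFit, eBayes with a trend, two-sided, group as the only term) on log2(CPM + 1), with Benjamini-Hochberg adjustment over 6814 genes and a threshold of 0.05. The code was tested on simulated data. The pseudocount of 1 understates the change of low genes. Groups and replicates come from the library titles. Every member was named. Values per library were given for the largest falls, the highest gene of each group and genes that did not pass. Of each list up to 2 falls and 2 rises were named, and other genes were chosen after their values were seen. One gene of the lists is not reported here. The members and lists were chosen with earlier results of these data known.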

Additional observations from a re-analysis of the deposited data

How the results depend on the processing

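Over 17 other settings, 19 of the 23 genes kept their direction and their side of the threshold wherever they were tested; the exceptions were SF1, SF2, Prp3 and snRNP-U1-70K, and none of the 23 changed direction under a call. SF1 lost its call under 10 settings. The number that fell was 21 in the reported fit, 18 with median of ratios scaling, quantile normalization or a threshold of 0.01, 19 with no filter, and 20 to 21 otherwise, including 21 with limma voom. The number that rose stayed at 0. The median log2 fold change was -1.205 with median of ratios scaling, -1.255 with quantile normalization and -1.184 with a pseudocount of 5 CPM, and -1.437 to -1.295 when 1 library was left out. Median of ratios scaling put the median of all tested genes at -0.004, against -0.153 in the reported fit, with 2174 lower and 2235 higher, against 2583 and 1856. With the 13 genes found by current symbols, an alternative chosen after seeing the data, the median was -0.94 and 1 gene rose. Over all other lists, 62 genes fell and 9 rose. Risers numbered 14 with median of ratios scaling and 5 at a threshold of 0.01, and 6 to 11 when 1 library was left out. The cause was not tested. With the replicate number as a block, 21 of the 23 fell and their median was -1.36. One exon junction complex gene rose with this block, with array weights, median of ratios scaling or quantile normalization, and without development replicate 1, against 0 in the reported fit. Same-numbered libraries did not deviate together (correlations of -0.03, 0.04 and -0.01, against -0.043 to 0.041 between different numbers). These values cannot show whether same-numbered libraries shared a preparation. Each of the 23 had at least 162 reads in every library, and read numbers cover counting error only.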

Other observations

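The table also holds rows for spliceosomal small nuclear RNAs, which were not members. The rows for U1, U2 and U4 held 0 reads each over the adult libraries and at most 4 over the development libraries. The rows for the minor spliceosome RNAs U11 and U12 held 19 and 3 reads over the adult libraries and 11 and 10 over the development libraries. All these rows were below the expression filter and were not tested. Their read numbers cannot show whether the preparation captured such RNAs, so they do not measure the level of these RNAs in the cells. The row for 7SK RNA, a noncoding RNA that regulates transcription elongation, held 20140 reads over the adult and 13029 over the development libraries, and was not called (log2 fold change 0.15 ± 0.125, SE, limma with adjusted p = 0.308).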
